A study of Auxenochlorella pyrenoidosa with 12 samples.

Results

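The gene names described here are 80 names from a Trinity assembly of the single-celled green alga Auxenochlorella pyrenoidosa (Chlorella pyrenoidosa) under which the share of an isoform differed between the highest dose of potassium peroxymonosulfate and the control. They are 80 of 916 eligible names, or 8.73%, and the whole table holds 20361 gene names. Rows that share a name up to its last number were summed into 22000 isoform names, and these were grouped by the name up to the letter g and its number, the gene name. A gene name was eligible with at least 2 isoforms of a mean of at least 2 FPKM over all libraries (fragments scaled to contig length and to the total of the library). The share of an isoform is its FPKM as a percentage of the sum under its gene name in the same library. A name was kept where the mean share of an isoform differed by at least 15 percentage points between 0.5 EC50 and control and the 3 and 3 shares did not overlap. These shares chose the members, so every value from that contrast is a description and carries no test.

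RNA came from whole cells of the alga, with 3 libraries in each of 4 groups. The control received no potassium peroxymonosulfate, and the exposed groups received 1.70 mg/L (0.1 EC50), 3.40 mg/L (0.2 EC50) or 8.49 mg/L (0.5 EC50). Potassium peroxymonosulfate is an oxidant used in water treatment, and the EC50 is its median effective concentration. The series describes a culture of 12 days, and the sources used here do not give the day on which this RNA was taken. The labels do not say whether replicate libraries stem from separate cultures, and p-values measure the spread between these samples alone, which may be technical. Contigs carry no gene names, so the labelled cell type could not be checked against marker genes and no pathway list could be matched.

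A gene of a green alga can give several transcripts by alternative splicing, by another start site or by another site of polyadenylation, and retention of an intron is a common form of splicing change in plants and green algae. A change in the share of an isoform can alter the protein or the stability of the transcript while the total of the gene stays the same. Trinity joins reads into contigs without a genome and labels each contig by cluster, component, gene and isoform. These labels are running numbers given within a single assembly run, and contigs under the same gene label in that run share sequence. In the deposited table each name carries a further last number from 1 to 4, and the sources used here do not say what it means.

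Whether these shares are isoform usage of a gene was not tested, and they are not read as such. Not a single gene name held more than 1 row with the same last number, so every comparison of isoforms under a gene name was a comparison of rows with different last numbers. Isoforms under the same gene name did not move together more than other isoforms. Over the 12 libraries the correlation of log2(FPKM + 1) had a median of 0.100 in the 1127 pairs of isoforms under a shared gene name and of 0.0924 in all 64553203 pairs of the 11363 isoforms with a mean of at least 2 FPKM. It lay above 0.5 in 17.2% of the pairs with a shared name and in 15.6% of all pairs. It lay below -0.5 in 10.5% of the pairs with a shared name and in 7.38% of all pairs. Under the member names, chosen for shifts of shares, it did so in 23.5% of 102 pairs. With each group centred on its own mean the medians were 0.0567 for a shared name and 0.0586 for all pairs. The pairs share libraries and are not independent, so these values are a description. They cannot decide the question, since isoforms that trade shares need not move together. Even rows that were summed because they share a whole isoform name had a median correlation of 0.0917 in 1104 pairs. The members are therefore called gene names and not genes, and a shift of a share is read as an unequal change of the contigs under a name.

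**Figure D1:**
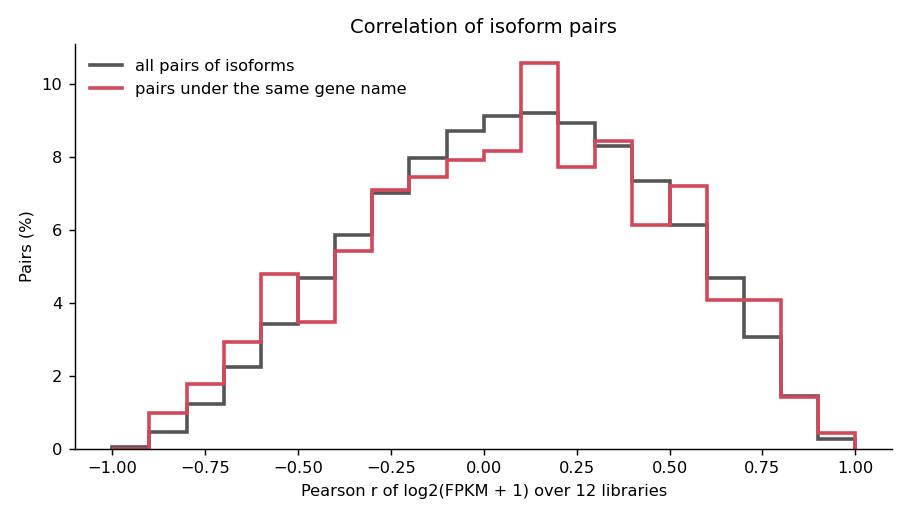
Pearson correlation of log2(FPKM + 1) over the 12 libraries (x axis) for pairs of isoforms with a mean of at least 2 FPKM, as a percentage of pairs per bin (y axis). The red line, for the 1127 pairs under a shared gene name, follows the grey line for all pairs, with medians of 0.100 and 0.0924.

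The 80 gene names held 197 contigs in 175 isoforms, of which 171 averaged 2 FPKM or more and 157 passed the rule. There were 65 names with 2 isoforms and 15 with 3. With 2 isoforms the shares mirror each other, so that such a name carries a single difference. Sums from more than 1 contig made up 21 of the 175 isoforms. Summed levels under the 80 names were moderate, from 5.91 to 147 FPKM with a median of 23.1 FPKM, while the 836 other eligible names had a median of 41.9 FPKM and reached 4850 FPKM. The largest shift under a name had a median of 21.3 percentage points and reached 50.8 points. It was at least 25 points under 23 names and at least 40 points under 3. The 3 names just inside the threshold shifted by 15.1, 15.4 and 15.5 points, and the 3 just outside, also without overlap, by 14.97, 14.6 and 14.5 points. A further 24 names shifted by at least 15 points with overlapping shares. The leading isoform, the one with the highest mean share, was another one at 0.5 EC50 than in the controls under 32 of the 80 names (40%) and under 51 of the 836 other eligible names (6.10%).

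TRINITY_DN1485_c0_g1 had the largest shift. Its isoform TRINITY_DN1485_c0_g1_i1 held 0%, 58.5% and 45.2% of the sum in control replicates 1, 2 and 3, and 94.7%, 64.2% and 97.1% at 0.5 EC50. The mean share went from 34.5% ± 30.6 to 85.4% ± 18.3 (SD, n = 3). The highest control and the lowest library at 0.5 EC50 lay close together, and the spread within both groups was wide. At 0.1 EC50 the shares were 12.3%, 71.5% and 15.7%, and at 0.2 EC50 18.02%, 15.8% and 80.05%, which overlap both the controls and the highest dose. Without control replicate 1 the difference of 50.8 points became 33.5 points.

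The levels show which contig carried that shift. The contig TRINITY_DN1485_c0_g1_i1_1 had control values of 0, 22.9 and 12.1 FPKM, and 428, 41.7 and 855 FPKM at 0.5 EC50. At 0.1 EC50 it had 3.19, 48.4 and 4.20 FPKM, and at 0.2 EC50 4.71, 4.19 and 88.1 FPKM. A single library stood far above the other two at each of these lower doses, replicate 2 and replicate 3. The other contig under the name, TRINITY_DN1485_c0_g1_i2_3, was steady within groups, at 15.3 ± 0.866 FPKM in control, 21.6 ± 1.92 at 0.1 EC50, 21.9 ± 0.474 at 0.2 EC50 and 24.2 ± 1.04 FPKM at 0.5 EC50 (SD, n = 3). Both levels were thus higher at 0.5 EC50 than in every control, and the second had a lower share at a higher level.

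TRINITY_DN2513_c0_g1 had the second largest rise of a share. TRINITY_DN2513_c0_g1_i4 held 0%, 50.0% and 56.8% in control libraries and 89.9%, 84.8% and 64.8% at 0.5 EC50. Its shares were 47.1%, 85.6% and 71.0% at 0.1 EC50 and 59.7%, 80.6% and 90.7% at 0.2 EC50. All 3 libraries at 0.2 EC50 and all 3 at 0.5 EC50 lay above the controls, and 1 library at 0.1 EC50 did not. The level of this isoform was 0, 4.20 and 4.04 FPKM in control libraries against 30.5, 22.8 and 8.13 FPKM at 0.5 EC50. The other isoform stood at 3.45 ± 0.655 FPKM in control and 3.98 ± 0.514 FPKM at 0.5 EC50 (SD, n = 3). The shift here was carried by the rising contig, and without control replicate 1 it went from 44.2 to 26.4 points.

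TRINITY_DN1868_c0_g1_i1 had the largest fall of a share under a gene name not yet described. It held 58.6%, 52.2% and 66.7% in control libraries, 40.04%, 22.7% and 41.7% at 0.1 EC50, 28.2%, 21.9% and 40.4% at 0.2 EC50, and 20.5%, 17.93% and 17.95% at 0.5 EC50. Each exposed library at every dose lay below every control. The level of this isoform fell across the groups, from 13.5, 12.3 and 21.0 FPKM in the controls to 2.22, 2.12 and 2.24 FPKM at 0.5 EC50. The other isoform, TRINITY_DN1868_c0_g1_i2, had nearly the same level in each group, with means of 10.4, 9.46, 9.11 and 9.50 FPKM from control to 0.5 EC50. The shift was carried by the falling contig alone, and it stayed between -43.8 and -36.6 points whichever library of the 2 groups was left out.

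TRINITY_DN620_c0_g1_i1 went the same way in share without a fall in level. Its share was 97.1%, 67.3% and 78.7% in the controls and 32.9%, 51.0% and 45.1% at 0.5 EC50. Its level, the sum of contigs with the last numbers 1 and 3, was 13.3 ± 1.96 FPKM in the controls and 15.9 ± 1.74 FPKM at 0.5 EC50 (SD, n = 3). What differed was the other isoform, TRINITY_DN620_c0_g1_i12, with 0.342, 6.25 and 4.19 FPKM in control libraries and 31.0, 14.1 and 21.8 FPKM at 0.5 EC50. At the lower doses it had 1.73, 15.9 and 4.06 FPKM at 0.1 EC50 and 2.41, 5.51 and 18.2 FPKM at 0.2 EC50. Replicate 2 at 0.1 EC50 and replicate 3 at 0.2 EC50 again stood above the rest of their groups.

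**Figure D2:**
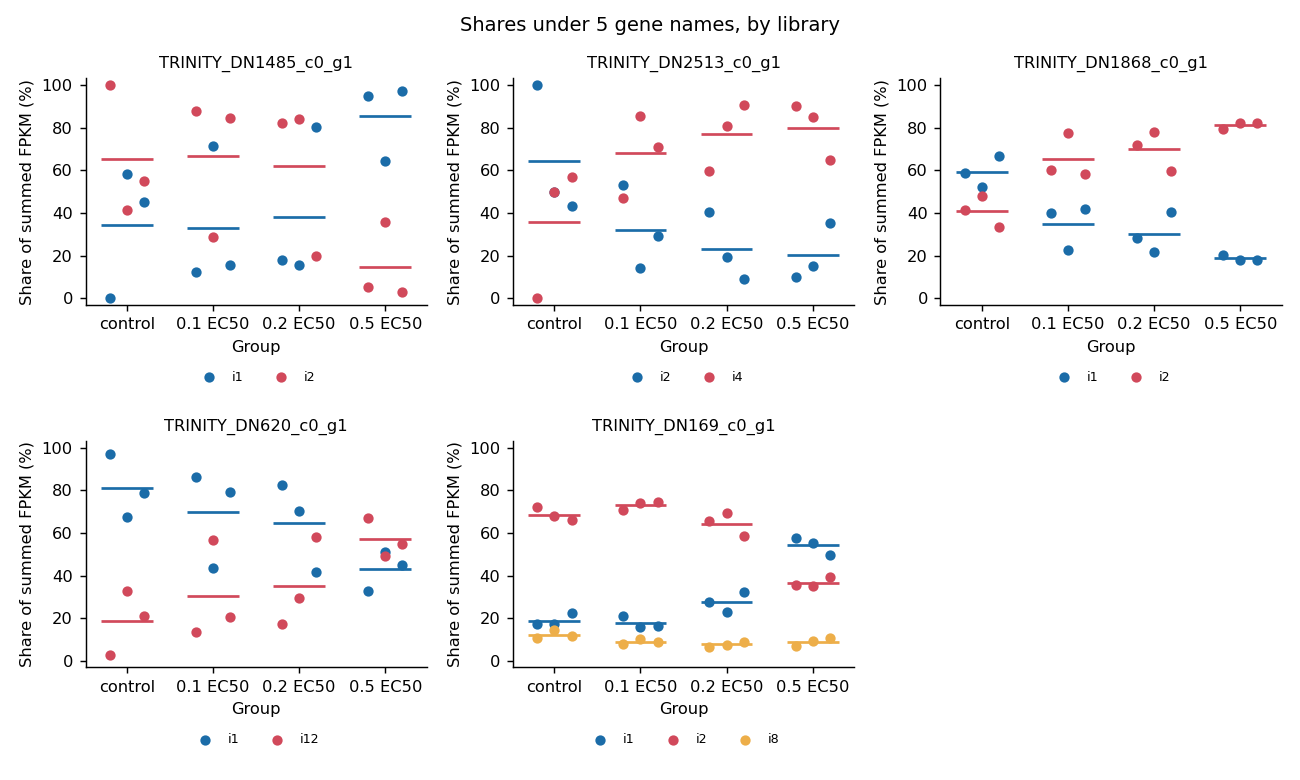
Share of each isoform in the sum under its gene name (y axis, percent) in each library, by group (x axis), for the 5 names described. Points are libraries in the order of replicates 1 to 3, lines are group means, and colours are isoforms; under TRINITY_DN1868_c0_g1 every exposed library lies outside the control range.

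Those 3 rising contigs shared their pattern over libraries although they stand under different names. TRINITY_DN1485_c0_g1_i1 had a correlation over the 12 libraries of 0.935 with TRINITY_DN620_c0_g1_i12 and of 0.733 with TRINITY_DN2513_c0_g1_i4, and the latter pair had 0.906, all on the log2(FPKM + 1) scale. TRINITY_DN1868_c0_g1_i2 had 0.147, 0.1501 and 0.00680 with the same isoforms. These correlations were looked at after the levels had been seen, they rest on shared libraries and groups, and they are a description. In each of these 3 contigs control replicate 1 held the lowest value of the 12 libraries. All 5 member isoforms that were listed at 0 in any control were at 0 in control replicate 1.

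**Figure D3:**
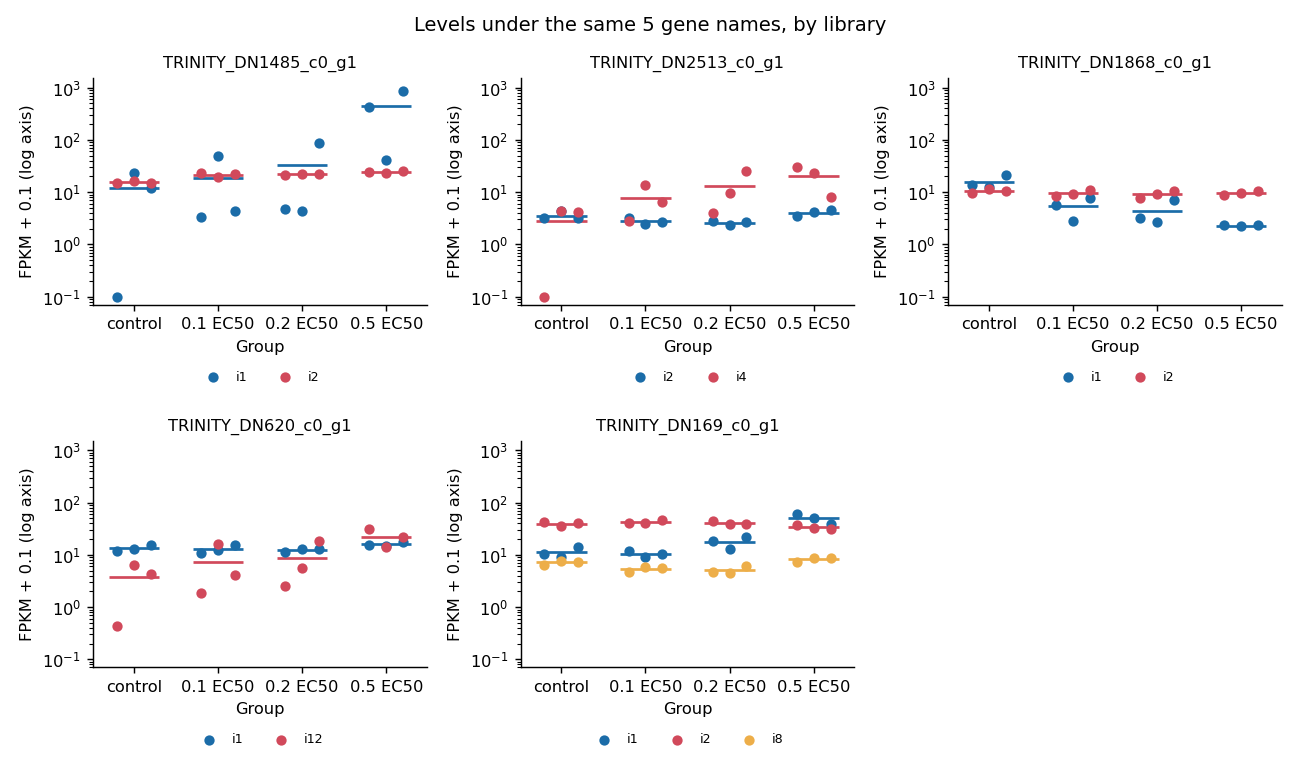
Levels of the same isoforms in FPKM plus 0.1 on a log axis (y axis) by group (x axis), with libraries as points in the order of replicates 1 to 3 and group means as lines. A shift came from a rising isoform under TRINITY_DN1485_c0_g1, TRINITY_DN2513_c0_g1 and TRINITY_DN620_c0_g1, and from a falling isoform under TRINITY_DN1868_c0_g1.

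Across the 80 names, the isoform with the largest rise in share and the one with the largest fall were compared in level. RNA was taken from whole cultures, so fewer cells with a transcript and less of it per cell cannot be told apart. At 0.5 EC50 the rising isoforms had a median difference of 0.69 from control on the log2(FPKM + 1) scale (from -0.75 to 5.20) and the falling isoforms of -0.47 (from -2.34 to 0.63), against 0.14 over all 11363 isoforms. The rising and falling isoforms under the 836 other eligible names had medians of 0.26 and -0.08. The rising isoform was above every control under 62 of the 80 names and the falling isoform below every control under 47. Under the 836 other eligible names these counts were 339 and 163. Of all isoforms with a mean of at least 2 FPKM, 26.5% lay above every control and 9.97% below. The rule used this contrast, so nothing is read from the excess. Both held under 34 names, with the isoforms on opposite sides of the control range, and under 35 of the 836 other eligible names (4.19%). Under 24 names (30%) the rising isoform alone left the control range, and under 11 the falling isoform alone. These shares were nearly the same under the other eligible names, where 245 (29.3%) and 110 (13.2%) did so. Both isoforms were higher under 4 names and both lower under 2, against 59 and 18 of the other 836. Both overlapped the controls under 5 members and under 337 others. The sum under the name was above every control for 28 names and below for 14, against 230 and 93 of the other 836. Over all tested names these shares were 23.9% and 8.4%.

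**Figure D4:**
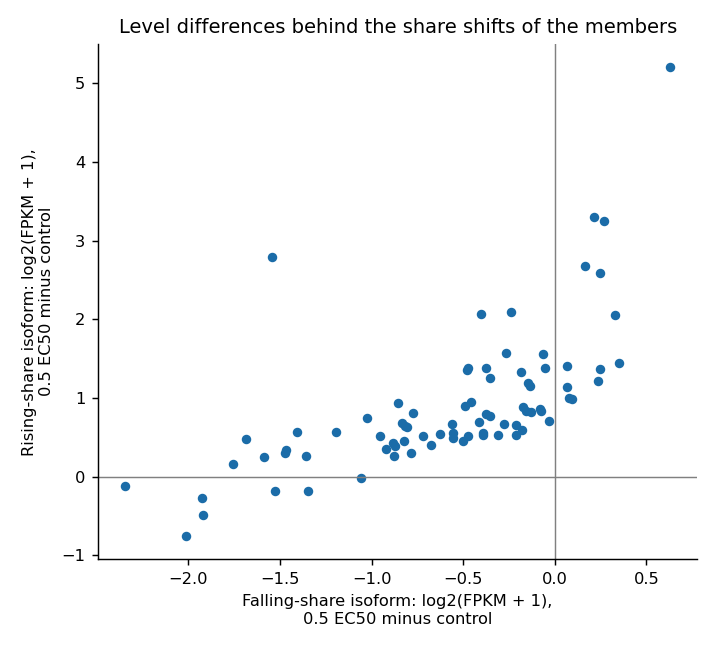
Difference in mean log2(FPKM + 1) between 0.5 EC50 and control for the falling-share isoform (x axis) and the rising-share isoform (y axis) under each of the 80 gene names, 1 point per name. Most points lie in the quadrant where the first is below 0 and the second above it, with TRINITY_DN1485_c0_g1 at the top with 5.20.

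The rule used the last numbers only in summing rows that share the rest of their name. Which contig rose or fell came from the contrast that chose the members, so the counts by last number are a description. Under 59 of the 80 names both the rising and the falling isoform were single contigs. Contigs with the last number 4 were the rising one in 25 of their 40 appearances (62.5%), those with 3 in 15 of 31 (48.4%), those with 2 in 11 of 24 (45.8%) and those with 1 in 8 of 23 (34.8%). Under the 638 other eligible names with single contigs these shares were 56.8%, 44.2%, 46.9% and 49.1%. Last numbers also went with the groups in the whole table. Contigs that averaged 1 FPKM or more were counted by the group with the highest mean. This was the control for 31.1% of those with the last number 3 and 16.3% of those with 4, while 0.2 EC50 was highest for 10.5% and 26.0%. The shares with 0.5 EC50 highest were alike for 3 and 4, at 47.9% and 47.0%. They were 46.9% for the last number 1 and 35.4% for 2. The part of this in the shifts of shares was not tested.

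The lower doses entered the rule only through the mean of at least 2 FPKM over all libraries. The isoform with the largest shift under each name was followed there, with the direction of 0.5 EC50 counted as positive. Against control its mean share differed by a median of 11.9 points at 0.2 EC50 (from -12.3 to 47.5) and of 9.51 points at 0.1 EC50 (from -13.0 to 52.3). Under the other eligible names the medians were 1.74 and 1.22 points. All 3 comparisons use the same 3 control libraries, which also chose the members, so these values are set beside each other without a test. At 0.2 EC50 the mean share lay between control and 0.5 EC50 but nearer to control under 25 names, and between them but nearer to 0.5 EC50 under 26. It went past 0.5 EC50 under 18 and to the other side of control under 11. At 0.1 EC50 it was nearer to control under 28 names, nearer to 0.5 EC50 under 20, past 0.5 EC50 under 17 and on the other side of control under 15.

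A difference of at least 15 points from control without overlap was present under 28 of the 80 names at 0.2 EC50 and under 20 at 0.1 EC50. Over all 916 eligible names the share was 6.99% at each of these doses. Nothing is read from the excess because of the shared controls. The leading isoform differed from that of the controls under 19 names at 0.2 EC50 and 18 at 0.1 EC50, and under 62 of the 836 others (7.42%) at either dose.

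Libraries within a group differed in these shares. The median SD of the share that shifted most was 6.41 points in control, 8.55 points at 0.1 EC50, 5.88 at 0.2 EC50 and 5.28 at 0.5 EC50, and between 2.44 and 2.75 points under the other eligible names. At 0.1 EC50, replicate 1 lay farthest toward the shares of 0.5 EC50 under 55 of the 80 names and replicate 3 farthest from them under 47. Under the other names those figures were 47.6% and 41.5%. The low FPKM values of 0.1 EC50 replicates 2 and 3, 0.2 EC50 replicate 2 and control replicate 2 also followed other steps than those of the other libraries. The fullest bin of their ratios to control replicate 1 held 1.99% to 2.93% of contigs, against 3.94% to 9.70% in the other 7 libraries. Without these 4 libraries 80 names passed the rule, 69 of them members. The counts of members past the same thresholds were then 31 at 0.2 EC50 and 37 at 0.1 EC50, where replicate 1 alone remained. Over all 916 eligible names the shares past these thresholds were 9.17% and 13.2% with the same libraries.

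**Figure D5:**
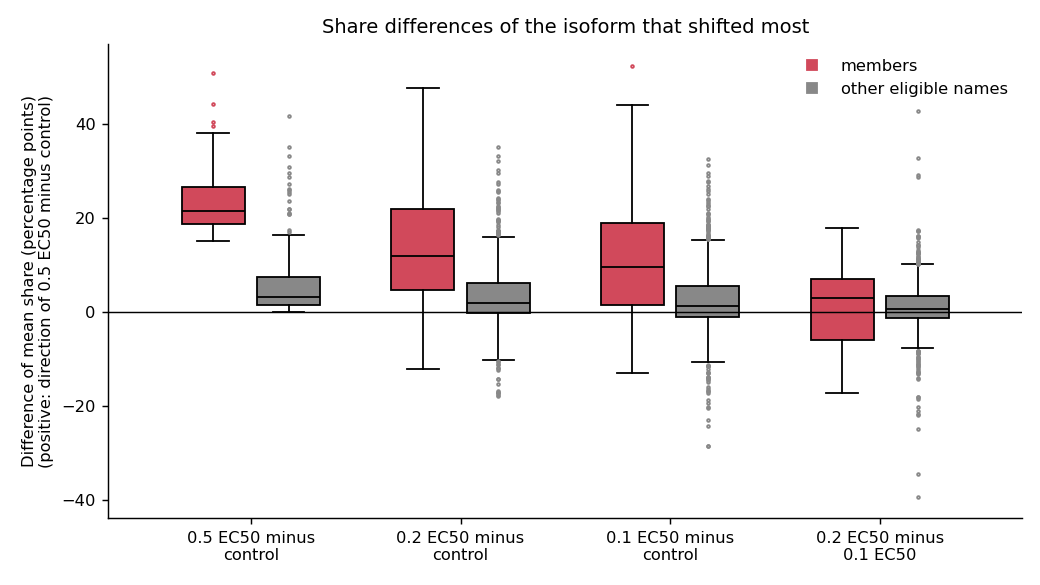
Difference in mean share (y axis, percentage points) of the isoform that shifted most under each gene name, for 4 comparisons (x axis), with the direction of 0.5 EC50 minus control counted as positive. Boxes span the quartiles with the median as a line, whiskers reach 1.5 times the box height and points lie beyond; the 80 members (red) were chosen by the first comparison, and between 0.2 and 0.1 EC50 their median is 2.85 points.

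The comparison of 0.2 with 0.1 EC50 contrasts groups whose shares did not choose the members, and it was tested. The fit took its spread from all 12 libraries, those of 0.5 EC50 and control included. Shares were tested as log2 of the isoform plus 1 FPKM over the rest under its name plus 1 FPKM, for the 1937 isoforms with a mean of at least 2 FPKM under all 916 eligible names. None of the 80 names was called in limma's moderated test (two-sided, Simes per name, Benjamini-Hochberg over all eligible names; smallest adjusted p among members 0.296), and 0% of the 916 names were called. The unadjusted p was under 0.05 under 9 of the 80 names (11.2%) and under 122 of the 916 (13.3%). With the 0.2 and 0.1 EC50 libraries only, it was so under 10 of the 80 (12.5%) and 92 of the 916 (10.0%). In that fit limma's moderated test called 0 of the 916 names, with a smallest adjusted p among members of 0.485. A p that misses the threshold does not show that shares were alike. Same-numbered libraries of these groups had positively correlated deviations from their group means. With the replicate number as a block over all 12 libraries, 3 of the 916 names (0.328%) and 0 of the 80 were called. With that block the unadjusted p was under 0.05 under 18 of the 80 (22.5%) and 177 of the 916 (19.3%). In the fits of all 12 libraries the members' percentages lay near those of all names, and nothing is read from the differences. Without 0.1 EC50 replicate 1 the numbers were 21 of 80 and 188 of 916, and without 0.2 EC50 replicate 2 they were 17 and 171. Without 0.1 EC50 replicate 2 they were 7 and 62. limma's diffSplice also called 3 of the 916, and 0 of the 80. In the direction of 0.5 EC50 the members' shares were higher at 0.2 than at 0.1 EC50 under 47 of 80 names (58.8%, median 2.85 points), where the other 836 had 59.6% and a median of 0.54 points. A difference of at least 15 points without overlap was present under 2 of the 80, against 1.2% of all eligible names.

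TRINITY_DN169_c0_g1 had the smallest p among the members in this comparison, and it was not called. TRINITY_DN169_c0_g1_i1 held 21.2%, 15.9% and 16.4% at 0.1 EC50 and 27.7%, 23.0% and 32.6% at 0.2 EC50, without overlap. The log2 ratio differed by 0.77 ± 0.215 (SE, limma's test, adjusted p = 0.296 for the name), and that of TRINITY_DN169_c0_g1_i2 by -0.56 ± 0.186. These took their spread from all 12 libraries, those that chose the members included. With the 0.2 and 0.1 EC50 libraries only, limma's moderated test gave no member an adjusted p under 0.485. In the controls the first isoform held 17.2%, 17.2% and 22.4%, and at 0.5 EC50 57.5%, 55.4% and 49.9%. This isoform is a sum of contigs with the last numbers 1 and 4, and they behaved differently. TRINITY_DN169_c0_g1_i1_1 had means of 2.10 ± 0.611, 3.68 ± 1.24, 8.48 ± 2.86 and 43.0 ± 10.3 FPKM from control over 0.1 and 0.2 to 0.5 EC50, while TRINITY_DN169_c0_g1_i1_4 had 8.93 ± 2.23, 6.70 ± 0.396, 9.38 ± 1.89 and 7.22 ± 1.03 FPKM (SD, n = 3). The first of these contigs rose stepwise in its mean over the doses, and the second, under the same isoform name, stayed within 6.24 and 11.5 FPKM in all 12 libraries.

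Summed levels under the 80 names were compared between 0.2 and 0.1 EC50 in a fit over all 14473 gene names with a mean sum of at least 1 FPKM. No sum was called (limma's moderated test, 0% of all names; 1781 names and 12 of the 80 had an unadjusted p under 0.05). The differences of the members ran from -0.65 to 0.63 on the log2(FPKM + 1) scale with a median of 0.03, and the median of all names was 0.09. The replicate block called 1 sum among all names and 0 among the 80.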

How the data were processed

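The authors deposited FPKM values for 29140 contigs in 12 libraries, and the table's own name states this unit. Per the labels' protocols, total RNA went into Illumina TruSeq libraries. The sources used here do not give the assembler's version, the aligner, the estimator or any filter. FPKM carry no read depth and no counting interval can be attached; summed FPKM lay between 503295 and 561291. All 12 libraries were used.

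Titles gave the dose of each sample. Shares and sums were computed in Python 3.11.15 with pandas 2.3.3, and fits used R 4.3.3 and limma 3.58.1, whose prior variance followed a trend on level, 1 fit over 4 groups with 8 residual degrees of freedom, a pseudocount of 1 FPKM and an adjusted p under 0.05. A fold on the log2(FPKM + 1) scale understates the change of low contigs. Whether replicate numbers of 0.2 and 0.1 EC50 mark a pairing was not tested. Deviations from the group means of same-numbered libraries of these groups correlated at 0.343, 0.333 and 0.261 in the log ratios of shares. In the sums they correlated at 0.159, 0.209 and 0.268. Against control the correlations of log ratios had mixed signs at each dose. They were 0.117, -0.158 and -0.153 for 0.5 EC50, and 0.418, 0.268 and -0.0703 for 0.1 EC50. The block over all 12 libraries fits the same replicate effect in every group.

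Members, tests and alternatives were chosen with earlier results of these data known. The names given are the 2 largest rises and 2 largest falls of an isoform's share, from different gene names with a mean sum of at least 5 FPKM, and the smallest p in each direction for 0.2 against 0.1 EC50. The fits were tested on simulated data. Alternatives changed the thresholds, the summing of rows, the pseudocount, the filter, the scaling, the variance model and the libraries used.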

Additional observations from a re-analysis of the deposited data

How the results depend on the processing

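The number of names that pass the rule was 145 with a minimum difference of 0.10, 23 with 0.25 and 197 with rows not summed over the last number, which raised the eligible names from 916 to 1715. Of those 197 names 78 were members. It stayed within 1.5 times of 80 for a minimum isoform mean of 1 or 5 FPKM (102 and 55), with overlap allowed (104) and with the 4 libraries of deviating low-value steps left out (80). Leaving out each library in turn gave 80 to 97 names, since 2 libraries overlap less easily than 3. Of the 80 members, 69 to 77 were among them. With contigs of different last numbers kept apart no name had 2 isoforms, so neither the rule nor the test of shares could be run. Members past the same thresholds numbered 29 to 32 at 0.2 EC50 and 20 to 29 at 0.1 EC50 when each library was left out. Without the 4 libraries, an alternative added after seeing the data, they numbered 37 at 0.1 EC50. Replicate 1 alone was then left at that dose, and fewer libraries overlap less easily. The share over all 916 eligible names was 13.2% in that setting, against 6.99% with all libraries. The cause was not tested.

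Between 0.2 and 0.1 EC50 none of the 80 names was called for its share or its sum under any alternative run. Over all 916 names the count of shares called went from 0 to 3 with the replicate block, to 1 with the block in the libraries of these 2 groups only (added after seeing the data) and to 3 with diffSplice, and was 0 to 2 when each library was left out, with 2 without 0.1 EC50 replicate 1. The count of sums went from 0 to 1 with the replicate block, stayed at 0 with the block in the libraries of the 2 groups only, and went to 1 without the prior trend, and was 0 when each library was left out.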
